A study of Mus musculus with 16 samples.

Results

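The 10 genes described here are nuclear genes for proteins that copy, package or transcribe mitochondrial DNA or act on its RNA. They are Polg, Polg2, Twnk, Ssbp1, Tfam, Polrmt, Tfb1m, Tfb2m, Tefm and Lrpprc. They were taken by gene name from a matrix of 17883 genes, and all 10 were found, each in 1 row. Mouse adipose tissue was sequenced from 3 conditions, and the series concerns the beiging of white fat. The cKO cold mice carried METTL3 flox/flox with Adipoq-Cre +/- and spent 7 days alone at 4 °C. The WT cold mice carried METTL3 flox/flox with no Cre and had the same cold. The WT RT mice carried METTL3 flox/flox with no Cre and were untreated. All were C57BL/6 mice aged 8 weeks, so the floxed allele was present in every group. Adipoq-Cre acts in adipocytes, and the other cells of the tissue keep Mettl3, which encodes the catalytic subunit of the complex that writes N6-methyladenosine (m6A) on mRNA. Total RNA (input) and RNA captured with an antibody against m6A were sequenced in all 3 conditions, and ribosome-protected fragments (footprints) in cKO cold and WT cold, with 2 libraries in each of the 8 groups.

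Mitochondrial DNA is copied by a small dedicated machine. Twinkle (Twnk) unwinds it, the catalytic subunit Polg with its accessory subunit Polg2 synthesises the new strands, and Ssbp1 coats the single-stranded stretches. Tfam packages the DNA into nucleoids and also bends promoters so that the RNA polymerase Polrmt, helped by Tfb2m, can start transcription, while Tefm keeps the polymerase elongating. Tfb1m methylates the small ribosomal RNA of the mitochondrion, and Lrpprc stabilises mitochondrial mRNAs. Brown and beige fat cells are rich in mitochondria, and the coactivators Ppargc1a and Ppargc1b are known to drive their production through nuclear factors such as Nrf1, Gabpa and the ERR receptors.

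The values are RPKM, reads scaled to gene length and library size. The reads behind them, recovered as whole numbers, came to between 3895031 and 8673393 per input library, between 4883129 and 6426541 per m6A library, and at least 1676208 to 2461267 per footprint library. Mettl3 had 3.83 and 1.90 RPKM in the cKO cold inputs, against 5.24 and 3.66 RPKM in the WT cold inputs, so the groups overlapped and the change did not pass the test (log2 fold change -0.53 ± 0.30 SE, adjusted p = 0.215). In m6A libraries it had 5.37 and 2.33 RPKM in cKO cold against 4.23 and 2.69 RPKM in WT cold. Its footprints were higher in cKO cold, at 8.99 and 5.22 RPKM against 4.60 and 4.82 RPKM in WT cold. That footprint change rested on at least 29 and 18 reads and did not pass (limma, 0.47 ± 0.37 SE, adjusted p = 0.411). In these bulk libraries, fewer cells of a type and less RNA per cell cannot be told apart. The summed level of 6 brown and beige fat markers was 80.6 to 125 RPKM in cKO cold inputs, 1079 to 1303 RPKM in WT cold inputs and 63.0 to 114 RPKM in WT RT inputs. The summed level of 8 T and B cell markers was 4.35 to 4.88 RPKM in cKO cold inputs, 0.362 to 1.62 RPKM in WT cold inputs, where Cd79a was at 0, and 606 to 649.6 RPKM in WT RT inputs. The 8 macrophage markers summed to 519 to 1090.2 RPKM in cKO cold inputs, 125 to 135 RPKM in WT cold inputs and 576 to 637 RPKM in WT RT inputs. Such sums follow the most abundant markers. In cKO cold over WT RT, 4 of 7 tested macrophage markers were higher and 0 lower (limma, adjusted p under 0.05). Among all genes tested there, 8.38% were higher and 24.7% lower. The 6 fibroblast markers summed to 947 to 2092 RPKM in cKO cold, 346 to 495 RPKM in WT cold and 1517 to 1532 RPKM in WT RT, and the 8 adipocyte markers to 8718 to 10056 RPKM in cKO cold, 11535 to 11950.4 RPKM in WT cold and 8383 to 8492 RPKM in WT RT. Fabp4 alone had 7619 and 7517 RPKM in WT cold inputs, against 2708 and 2857 RPKM in WT RT inputs. Adipoq and Plin1 gave log2 fold changes of -0.17 and 0.02 in WT cold over WT RT and did not pass. Of the 8 adipocyte markers, 3 were higher and 1 lower there, where 6.52% of all genes were higher and 51.2% lower. The 5 skeletal muscle markers set some libraries apart: they summed to 128 RPKM in cKO cold input replicate 2 and 240.5 RPKM in WT RT input replicate 1, against 0.737 to 7.68 RPKM in the other 4 inputs, and were likewise high in the matching m6A libraries and in cKO cold footprint replicate 1. The part of these cell types in the results below was not tested. Library codes of WT RT and of the cold conditions come from different series, so an effect of temperature and one of the code series cannot be told apart. Whether 2 replicates came from 2 animals is not stated, and the p-values then reflect library-to-library spread, which may be technical.

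RefSeq promoter windows of GRCm38.p6 (250 bases before to 50 after an annotated start) were found for all 10 genes, 11 windows in all because Twnk has a pair of starts. Windows of 3 genes are shown because Tfb2m, Polg and Twnk are the members whose input RNA passed the test between WT cold and another condition, and the capitals mark the single match to the NRF1 or ETS motif in each. Tfb2m lies on the minus strand (gene at chr1:179528052-179546305, window chr1:179546227-179546526), with its NRF1 match 12 bases after the start. Polg lies on the minus strand (gene at chr7:79446231-79467911, window chr7:79466224-79466523), with its ETS match 38 bases before the start. Twnk lies on the plus strand (gene at chr19:45005663-45012764, window of the second start chr19:45006308-45006607), with its ETS match 111 bases before that start. For Tfb2m and Polg the annotated start of the window lies inside the gene interval given, not at its end.
Tfb2m: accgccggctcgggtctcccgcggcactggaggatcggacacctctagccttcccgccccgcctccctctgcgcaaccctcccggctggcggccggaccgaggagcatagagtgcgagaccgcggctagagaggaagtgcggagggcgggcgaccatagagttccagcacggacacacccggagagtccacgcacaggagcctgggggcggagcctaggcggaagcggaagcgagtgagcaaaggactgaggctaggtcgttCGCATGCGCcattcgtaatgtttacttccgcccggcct
Polg: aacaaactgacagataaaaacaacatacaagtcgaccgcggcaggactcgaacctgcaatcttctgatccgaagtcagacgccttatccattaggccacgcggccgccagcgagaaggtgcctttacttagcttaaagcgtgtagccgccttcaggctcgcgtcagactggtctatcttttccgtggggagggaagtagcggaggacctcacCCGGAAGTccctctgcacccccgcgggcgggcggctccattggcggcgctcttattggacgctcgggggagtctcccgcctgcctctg
Twnk: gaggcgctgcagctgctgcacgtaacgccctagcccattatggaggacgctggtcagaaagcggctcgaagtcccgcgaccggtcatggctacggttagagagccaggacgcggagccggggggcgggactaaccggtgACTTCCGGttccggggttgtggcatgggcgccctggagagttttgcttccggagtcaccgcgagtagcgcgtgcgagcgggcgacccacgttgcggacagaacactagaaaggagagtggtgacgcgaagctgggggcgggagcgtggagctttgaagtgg

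The search covered both strands and 6 motifs. The NRF1 motif (GCGCANGCG) was in 2 of the 10 genes, Tfb2m and Polrmt, and in 6.25% of all 32851 windows. The ETS motif (CCGGAAGT), which GABP binds, was in 4 of the 10 genes, Polg, Tfam, Tefm and Twnk, and in 3.89% of all windows. The SP1 motif (GGGCGG) was in 7 of the 10 genes, Tfb2m, Ssbp1, Polg, Tfam, Tfb1m, Lrpprc and Twnk, and in 35.7% of all windows, and none of these matches shared bases with an NRF1 or ETS match. No member window held the YY1 motif (AAGATGGCG, in 1.40% of all windows), the ERR motif (TCAAGGTCA, 0.423%) or the CRE motif (TGACGTCA, 1.79%). The genes with an ETS match included Polg and Twnk, which fell in WT cold over WT RT by the test below, and Tefm, which had 6.34 and 6.52 RPKM in WT cold against 4.24 and 2.79 RPKM in WT RT without passing it.

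Input levels spread widely within the set. In cKO cold, mean input RNA ran in the order Lrpprc (23.6 RPKM), Ssbp1 (18.2), Tfb2m (13.4), Polrmt (9.57), Tefm (6.76), Polg (6.15), Twnk (4.82), Tfb1m (4.59), Tfam (3.37) and Polg2 (0.980). In WT cold, Tfb2m stood second at 24.4 RPKM, next to Lrpprc at 26.0 RPKM, and their replicates overlapped. In WT RT, Ssbp1 led at 21.1 RPKM with Lrpprc beside it at 19.7 RPKM, again overlapping, and Tfb2m stood at 11.4 RPKM, overlapping Polrmt at 11.7 RPKM and Polg at 11.95 RPKM. The Tfb2m replicates were separate from those of the next gene down in every condition. Tfam had 3.30 and 3.45 RPKM in cKO cold, 4.07 and 3.88 RPKM in WT cold and 5.95 and 5.74 RPKM in WT RT. Polg2 was the lowest member in both cold conditions and rested on 13 reads in cKO cold, 39 in WT cold and 83 in WT RT, so its values are coarse. The sum over all 10 genes varied little, from 85.7 to 97.2 RPKM in cKO cold, 92.8 to 107 RPKM in WT cold and 95.5 to 102 RPKM in WT RT, and the 3 ranges overlapped.

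**Figure D1:**
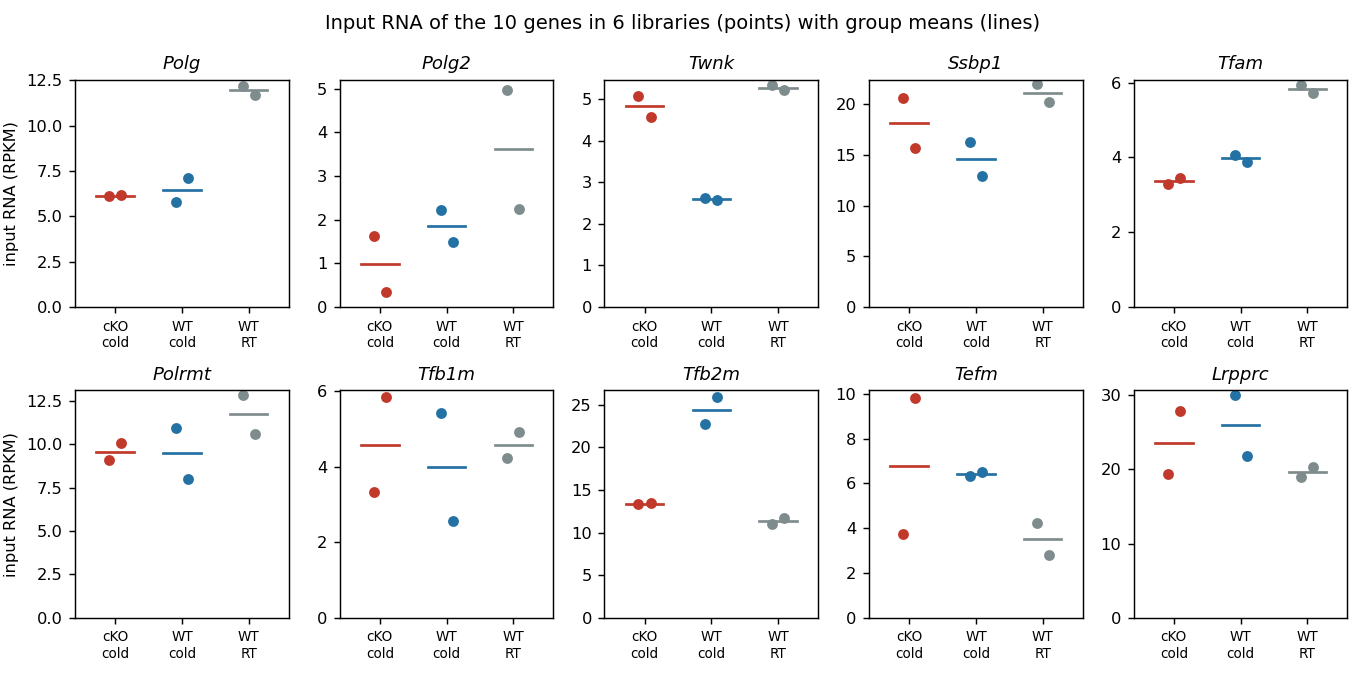
Input RNA in RPKM (y axis, from 0) of each gene, 1 panel per gene, in cKO cold, WT cold and WT RT libraries (points, 2 per condition) with the mean of each condition (lines). Tfb2m stands at 22.8 and 25.9 RPKM in WT cold, above every cKO cold and WT RT library, while Twnk is lowest in WT cold at 2.61 and 2.57 RPKM.

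After cold exposure, WT tissue held 2.15 times as much Tfb2m RNA as WT tissue at RT (mean RPKM), while the replication genes Polg and Twnk were lower. Of the 10 genes, 1 rose and 2 fell in WT cold over WT RT, with an adjusted p under 0.05 as the threshold throughout. Among all 12667 genes tested, 6.52% were higher and 51.2% lower, and the median gene had a log2 fold change of -0.67, so a lower value was the usual one in this comparison. Tfb2m, the initiation factor, had 22.8 and 25.9 RPKM in WT cold, against 11.0 and 11.7 RPKM in WT RT. The groups were far apart (means 24.4 ± 2.2 and 11.4 ± 0.48 RPKM, SD, n = 2 each), with a log2 fold change of 1.04 ± 0.15 SE on the log2(RPKM + 1) scale and adjusted p = 0.00148, above 97.3% of tested genes. Twnk, the helicase, had 2.61 and 2.57 RPKM in WT cold, against 5.33 and 5.23 RPKM in WT RT. That is a log2 fold change of -0.81 ± 0.19 SE (adjusted p = 0.0108), close to the median gene, and under quantile scaling its sign turned (0.07, adjusted p = 0.779). Polg, the polymerase subunit, had 5.81 and 7.13 RPKM in WT cold, against 12.2 and 11.7 RPKM in WT RT, with no overlap (log2 fold change -0.80 ± 0.18 SE, adjusted p = 0.00882).

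The other 7 did not pass in this comparison. Ssbp1 had 16.3 and 12.9 RPKM in WT cold, against 22.0 and 20.2 RPKM in WT RT (log2 fold change -0.51, adjusted p = 0.0553), and Tfam gave -0.46 (adjusted p = 0.0717). Both pairs of groups stood apart without overlap. The elongation factor Tefm gave 0.74 (adjusted p = 0.146) and Lrpprc, with 30.1 and 21.8 RPKM in WT cold against 19.0 and 20.4 RPKM in WT RT, gave 0.36 (adjusted p = 0.200). Polg2, Polrmt and Tfb1m gave -0.64, -0.29 and -0.22 with adjusted p of 0.226 to 0.613.

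These calls depend on how libraries are scaled. With median-ratio scaling the median gene stood at -0.05, 19.1% of 12548 tested genes were higher and 20.2% lower, and 3 members were higher and 0 lower by limma. Tfb2m rose by 1.74, Tefm by 1.36 (adjusted p = 0.0333) and Lrpprc by 1.08 (adjusted p = 0.00803), while Twnk (-0.22) and Polg (-0.12) no longer passed. Over all 11 alternatives, Tfb2m stayed past the threshold (0.95 to 1.74, adjusted p 0.000296 to 0.0246), and Tefm (adjusted p 0.0181 to 0.439) and Lrpprc (0.00803 to 0.628) passed in 2 each. Without WT RT input replicate 1, which carries the muscle markers, Polg (-0.77, adjusted p = 0.0872) and Twnk (-0.79, adjusted p = 0.102) did not pass, nor did they without WT RT input replicate 2 (-0.83 and -0.82, adjusted p = 0.0667 and 0.0894). Over the 11 alternatives the adjusted p of Polg ran between 0.00416 and 0.977 and that of Twnk between 0.00366 and 0.779. Without WT cold input replicate 1, Ssbp1 passed (-0.67, adjusted p = 0.0371), over a range of -0.67 to 0.20 (adjusted p 0.0338 to 0.496).

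In the cold, the libraries labelled cKO held less Tfb2m RNA and more Twnk RNA than those labelled WT. This comparison and the one above share the WT cold libraries. Of the 10 genes, 1 rose and 1 fell in cKO cold over WT cold. Among the 12667 genes tested, 23.6% were higher and 2.92% lower, and the median gene had a log2 fold change of 0.40. Tfb2m had 13.4 and 13.4 RPKM in cKO cold, against 22.8 and 25.9 RPKM in WT cold. The groups did not overlap, and the log2 fold change was -0.81 ± 0.15 SE (adjusted p = 0.0120), below all but 2.18% of tested genes. It passed under all 11 alternatives (-1.29 to -0.72, adjusted p 0.00561 to 0.0415), including without cKO cold input replicate 2, the library with muscle markers (-0.81, adjusted p = 0.0328). Twnk had 5.08 and 4.56 RPKM in cKO cold, against 2.61 and 2.57 RPKM in WT cold, without overlap, from 142 and 119 reads per group (log2 fold change 0.70 ± 0.19 SE, adjusted p = 0.0377).

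The rise of Twnk is the less firm of the pair. It passed in 2 of 11 alternatives (0.17 to 0.87, adjusted p 0.0211 to 0.589), and leaving out any of the 4 libraries ended the call: without WT cold input replicate 1 it was 0.70 (adjusted p = 0.0553), without WT cold input replicate 2 0.69 (0.0819), without cKO cold input replicate 1 0.63 (0.0949) and without cKO cold input replicate 2 0.76 (0.0575). With median-ratio scaling 6.09% of genes were higher and 6.95% lower, and Twnk stood at 0.32 (adjusted p = 0.300). Twnk also shares 780 bases with Mrpl43, a gene of a mitochondrial ribosomal protein, and the sources used here do not say whether reads were counted by strand. Mrpl43, chosen after its values were seen, had 31.7 and 36.5 RPKM in cKO cold inputs, against 14.3 and 14.6 RPKM in WT cold inputs, and rose by a log2 fold change of 1.18 ± 0.15 SE (adjusted p = 0.00523). In WT cold over WT RT, Mrpl43 gave 0.03 (adjusted p = 0.889). How far reads of Mrpl43 enter the Twnk value was not tested. The other 8 genes gave log2 fold changes of -0.60 (Polg2) to 0.30 (Ssbp1) in cKO cold over WT cold, with adjusted p of 0.271 to 0.936. Polg was 6.14 and 6.16 RPKM in cKO cold, between the 5.81 and 7.13 RPKM of WT cold, and Polrmt was 9.09 and 10.05 RPKM in cKO cold, between the 10.9 and 8.01 RPKM of WT cold. Tefm split within cKO cold, with 3.72 and 9.81 RPKM, against 6.34 and 6.52 RPKM in WT cold.

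Set against WT RT, the cKO cold libraries had Tfb2m at 13.4 and 13.4 RPKM against 11.0 and 11.7 RPKM in WT RT (log2 fold change 0.22 ± 0.15 SE, adjusted p = 0.282), and Twnk at 5.08 and 4.56 RPKM against 5.33 and 5.23 RPKM in WT RT (-0.11 ± 0.19 SE, adjusted p = 0.686). Tfb2m passed here in 1 of 11 alternatives, quantile scaling (0.53, adjusted p = 0.0327), over a range of 0.18 to 0.53 (adjusted p 0.0327 to 0.673). Of the 10 genes, 0 rose and 2 fell, by limma, with 3 at an unadjusted p under 0.05. Among all tested genes 8.38% were higher and 24.7% lower. Polg fell to 6.14 and 6.16 RPKM in cKO cold, against 12.2 and 11.7 RPKM in WT RT (-0.86 ± 0.18 SE, adjusted p = 0.0126). Tfam fell to 3.30 and 3.45 RPKM in cKO cold, against 5.95 and 5.74 RPKM in WT RT (-0.65 ± 0.19 SE, adjusted p = 0.0381). With median-ratio scaling, where 13.4% of genes were higher and 15.3% lower, neither passed (Polg -0.62, adjusted p = 0.0536, Tfam -0.42, adjusted p = 0.125). Tfam passed in 1 of 11 alternatives (-0.77 to -0.29, adjusted p 0.04995 to 0.269), and left-out libraries ended its call in every case: -0.62 (adjusted p = 0.269) without WT RT input replicate 1, -0.67 (0.226) without WT RT input replicate 2, -0.62 (0.0765) without cKO cold input replicate 1 and -0.67 (0.0731) without cKO cold input replicate 2. Polg passed in 7 of 11 (-0.95 to -0.55, adjusted p 0.00559 to 0.139), and not without WT RT input replicate 1 (-0.83, adjusted p = 0.139) or 2 (-0.89, adjusted p = 0.109). Without cKO cold input replicate 1, Polg2 (-1.71, adjusted p = 0.0347, over a range of 0.0140 to 0.359) and Tefm (1.28, adjusted p = 0.0229, over a range of 0.0229 to 0.838) passed.

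The m6A capture differed among the 10 genes, and the counts called were near the shares over all tested genes, both given below. Twnk was the member with the most captured RNA over input, Polg, Tfam and Polrmt had ratios of mean m6A to mean input RPKM of 0.764 to 1.33, and Lrpprc, Ssbp1 and Tfb2m were captured less. In cKO cold, 0 of the 10 genes were higher and 4 lower in m6A over input by limma, with 6 at an unadjusted p under 0.05, and in WT cold and in WT RT 1 was higher and 3 were lower. Among all 13062 tested genes, 11.4% were higher and 35.2% lower in cKO cold, 13.7% and 25.6% in WT cold, and 16% and 34.6% in WT RT. Twnk had 10.2 and 11.1 RPKM in the WT cold m6A libraries, against 2.61 and 2.57 RPKM in the WT cold inputs, with log2 fold change 1.69 ± 0.14 SE (adjusted p = 2.09e-05), above 99.4% of tested genes. In WT RT it had 16.03 and 16.79 RPKM in m6A libraries against 5.33 and 5.23 RPKM in inputs, with log2 fold change 1.47 ± 0.14 SE (adjusted p = 2.64e-05). These 2 results passed under all 11 alternatives each. In cKO cold Twnk had 6.63 and 6.38 RPKM in m6A libraries against 5.08 and 4.56 RPKM in inputs, a smaller gap that did not pass (0.37 ± 0.14 SE, adjusted p = 0.0521). It passed in 5 of 11 alternatives, over a range of 0.30 to 0.78 (adjusted p 0.00138 to 0.172), and with median-ratio scaling it was 0.73 (adjusted p = 0.00230). With that scaling, 2 of the 10 genes were higher and 2 lower in m6A over input in cKO cold, and 2 were higher and 3 lower in WT cold and in WT RT. Among all 12952 genes tested under it, 21.2% were higher and 20.5% lower in cKO cold, 20.4% and 21.2% in WT cold, and 24.1% and 23% in WT RT.

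At the other end stood Lrpprc, the mRNA-stabilising protein. Its m6A libraries held 6.03 and 8.45 RPKM in cKO cold, against 19.4 and 27.9 RPKM in the inputs (-1.57 ± 0.21 SE, adjusted p = 0.000241). In WT cold they held 8.65 and 8.57 RPKM, against 30.1 and 21.8 RPKM in inputs (-1.47), and in WT RT 4.29 and 3.92 RPKM, against 19.0 and 20.4 RPKM in inputs (-2.02). The m6A and input libraries of Lrpprc did not overlap in any condition. Ssbp1 was lower in m6A over input, with log2 fold changes of -0.90 in cKO cold, -0.95 in WT cold and -1.63 in WT RT, and so was Tfb2m, with -1.27 in cKO cold, -0.89 in WT cold and -0.75 in WT RT. All of these passed (adjusted p 5.23e-05 to 0.00436), and under the alternatives the one that was lost was Ssbp1 in cKO cold, in 2 of 11, both of them scalings (adjusted p 0.000854 to 0.0551). Tfb1m passed in cKO cold (-1.04 ± 0.31 SE, adjusted p = 0.0201) from 24 reads in m6A libraries and 53 in inputs, and did not pass without cKO cold input replicate 2 (-0.71, adjusted p = 0.140) or without m6A replicate 1 (-1.13, 0.0514) or 2 (-0.94, 0.0957), over a range of 0.0125 to 0.140. Polrmt, at 12.6 and 12.5 RPKM in WT cold m6A libraries against 10.9 and 8.01 RPKM in inputs, gave 0.39 (adjusted p = 0.0854), and passed without WT cold input replicate 1 (0.59, adjusted p = 0.0239). In WT RT Polrmt gave 0.32 (adjusted p = 0.129) and passed in 3 of 11 alternatives, all of them scalings (0.58 to 0.61, adjusted p 0.00626 to 0.0122), and in cKO cold it gave 0.06 (adjusted p = 0.788) and passed in 2 of 11 (0.46 with median-ratio scaling, adjusted p = 0.0303). Left-out inputs also let Tfb1m pass in WT cold (-1.24, adjusted p = 0.0140, without replicate 2), Polg2 in WT RT (-1.37, adjusted p = 0.0269, without replicate 2) and Tefm in cKO cold (-1.45, adjusted p = 0.00256, without replicate 1).

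**Figure D2:**
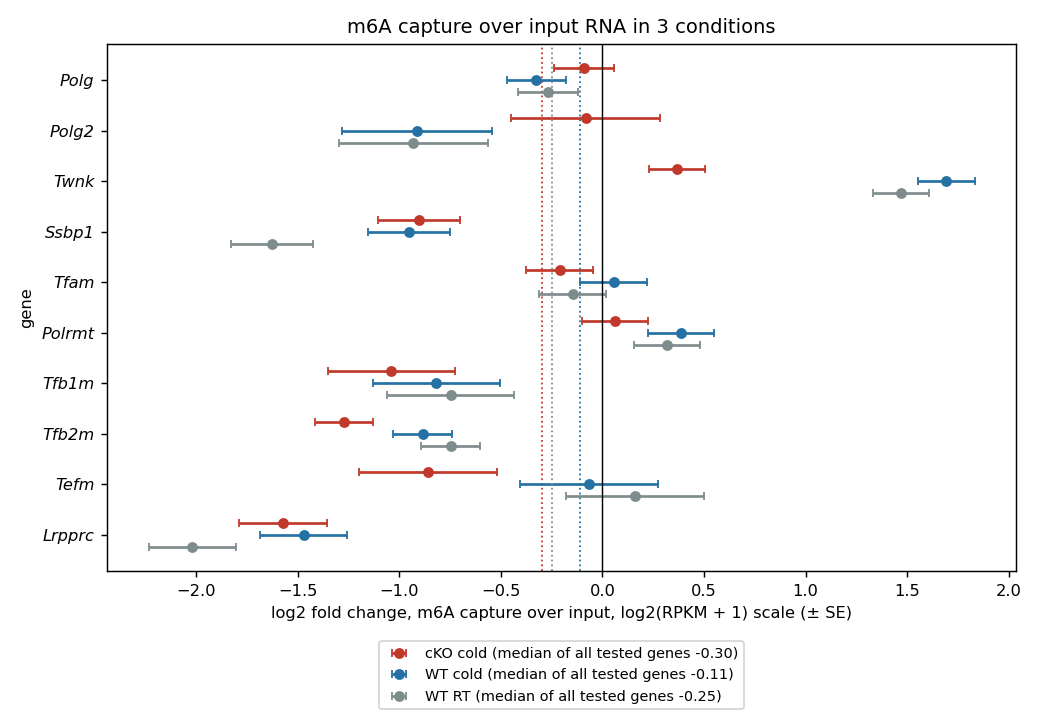
Log2 fold change of m6A capture over input RNA (x axis, log2(RPKM + 1) scale) for each gene in cKO cold, WT cold and WT RT, with the SE of the limma fit as bars, 0 as a solid line and the median of all tested genes as dotted lines. Twnk stands at 0.37 in cKO cold against 1.69 in WT cold and 1.47 in WT RT, and Lrpprc is the lowest gene in all 3 conditions.

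Within a condition, input and m6A libraries with the same replicate number deviated together, so the fit was repeated with these pairs as blocks. In cKO cold the blocked fit called 6 members in place of 4, because Twnk (0.37, adjusted p = 0.0430) and Tefm (-0.86, adjusted p = 0.0296) were added, and 16.1% of all genes were higher and 42.2% lower. In WT cold the blocked fit called 7, adding Polrmt (0.39, adjusted p = 0.0442), Polg2 (-0.91, adjusted p = 0.0218) and Tfb1m (-0.82, adjusted p = 0.0413), with 19.4% of all genes higher and 31.9% lower. In WT RT it called 6, adding Polg2 (-0.93, adjusted p = 0.0164) and Tfb1m (-0.75, adjusted p = 0.0491), with 21.3% higher and 40.6% lower. Over the 11 alternatives the adjusted p of Tefm in cKO cold ran between 0.00256 and 0.470. In WT cold it ran between 0.00692 and 0.436 for Polrmt, 0.0218 and 0.342 for Polg2, and 0.01398 and 0.374 for Tfb1m. In WT RT it ran between 0.0164 and 0.372 for Polg2, and 0.0491 and 0.352 for Tfb1m.

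Whether the m6A capture of a gene differed between conditions was tested as the difference of its 2 fold changes over input. In cKO cold over WT cold, 0 of the 10 genes passed by limma, and 0% of the 13062 tested genes were higher and 0% lower, with 1311 at an unadjusted p under 0.05. Twnk was the member at that unadjusted threshold, with a difference of -1.33 ± 0.20 SE (unadjusted p = 4.8e-05, adjusted p = 0.0885), below all but 0.666% of tested genes. Its m6A level over input was 1.35 in cKO cold against 4.10 in WT cold as ratios of mean RPKM, with 1.30 and 1.40 in the cKO cold pairs and 3.90 and 4.30 in the WT cold pairs. With the input and m6A pairs as blocks the difference of -1.33 ± 0.19 SE passed (adjusted p = 0.0143), where 0.0612% of tested genes were higher and 3.04% lower. Blocking was the 1 of 15 alternatives in which the difference passed. Over all 15 alternatives the difference was -1.57 to -1.02, and the adjusted p 0.0143 to 0.368. Without the libraries with muscle markers it was -1.39 (input replicate 2 of cKO cold left out) and -1.30 (m6A replicate 2 left out). The captured RNA was 6.63 and 6.38 RPKM in cKO cold against 10.2 and 11.1 RPKM in WT cold, while the inputs were 5.08 and 4.56 RPKM in cKO cold against 2.61 and 2.57 RPKM in WT cold. The overlapping gene Mrpl43 gave -0.95 ± 0.21 SE for the same difference (adjusted p = 0.136). The other 9 genes gave differences of -0.79 (Tefm) to 0.83 (Polg2), with adjusted p of 0.573 to 0.983.

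In WT cold over WT RT, 0 of the 10 genes differed in m6A over input by limma, with 1 at an unadjusted p under 0.05, and 0.023% of all tested genes were higher and 0.0383% lower. That member was Ssbp1, with a ratio of mean m6A to mean input RPKM of 0.488 in WT cold and 0.292 in WT RT (difference 0.67 ± 0.29 SE, adjusted p = 0.404). Lrpprc had ratios of 0.332 in WT cold and 0.208 in WT RT (0.55 ± 0.30 SE, adjusted p = 0.560). Twnk had ratios of 4.10 in WT cold and 3.11 in WT RT (0.22 ± 0.20 SE, adjusted p = 0.755).

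**Figure D3:**
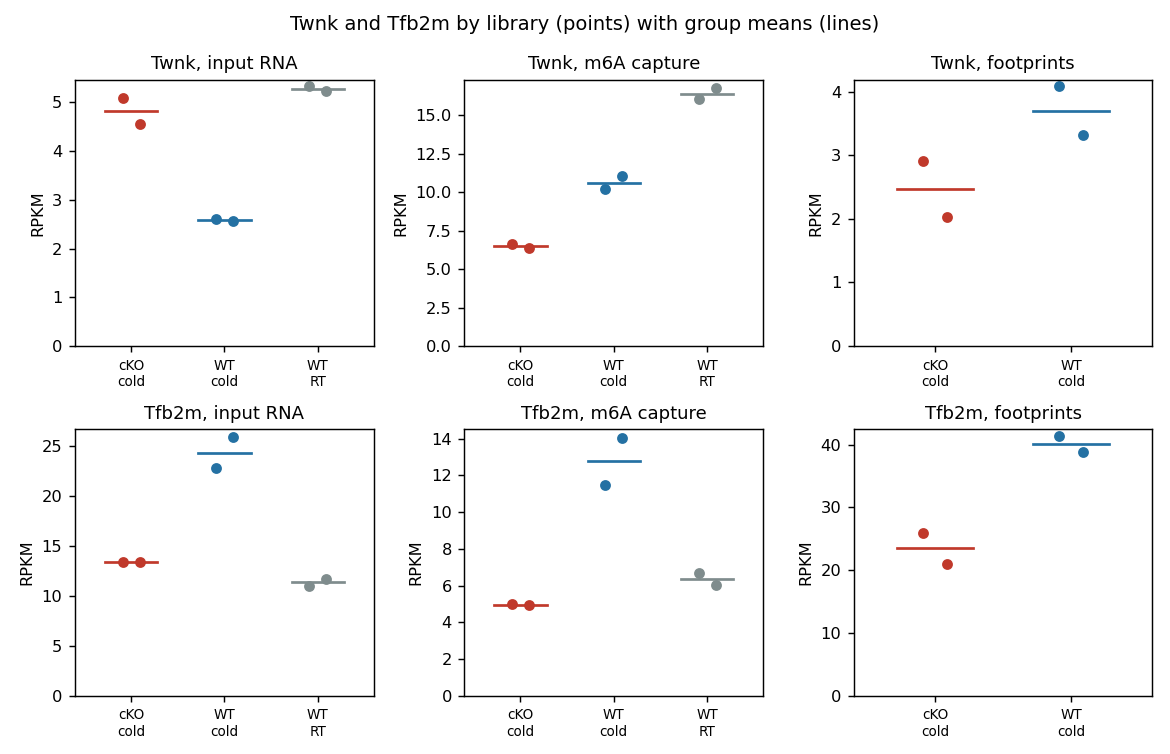
Twnk (upper row) and Tfb2m (lower row) in input RNA, m6A capture and footprints, in RPKM (y axes, from 0), with points for the 2 libraries of each condition and lines for the means. Tfb2m is highest in WT cold in all 3 kinds of library, and Twnk m6A capture is lowest in cKO cold at 6.63 and 6.38 RPKM although its input there exceeds that of WT cold.

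Ribosome footprints of Tfb2m had lower values in cKO cold, the direction of its RNA, and did not pass the test. They were 25.9 and 21.0 RPKM in cKO cold, against 41.4 and 38.8 RPKM in WT cold, from at least 133 and 211 reads per group. The groups did not overlap (means 23.5 ± 3.5 and 40.1 ± 1.8 RPKM, SD, n = 2 each), with a log2 fold change of -0.75 ± 0.22 SE (adjusted p = 0.0695), below all but 4.35% of tested genes. Of the 10 genes, 0 passed in footprints by limma, with 1 at an unadjusted p under 0.05, while 5.61% of all 12763 tested genes were higher, 1.54% lower and the median gene stood at 0.42. Tfb2m passed with median-ratio scaling (-1.20, adjusted p = 0.0241, 2.51% of all genes lower) and with all 16 libraries in 1 fit (-0.75, adjusted p = 0.00701), over a range of 0.00701 to 0.175 in 11 alternatives. The fit of all 16 libraries called more genes, with 3285 of 13418 higher and 489 lower. Without cKO cold footprint replicate 1, which carries the muscle markers, it gave -0.90 (adjusted p = 0.118). Twnk footprints were 2.91 and 2.03 RPKM in cKO cold, against 4.09 and 3.32 RPKM in WT cold, without overlap but from at least 24 and 34 reads (log2 fold change -0.45 ± 0.29 SE, adjusted p = 0.324).

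Footprint sums of the macrophage and fibroblast markers were higher in cKO cold and those of the brown and beige fat markers lower, while those of the T and B cell markers overlapped. The T and B cell markers summed to 303 to 925 RPKM in cKO cold footprints and 296 to 436 RPKM in WT cold footprints. Their input sums were far lower, at 4.35 to 4.88 RPKM in cKO cold and 0.362 to 1.62 RPKM in WT cold. The 4 endothelial markers summed to 174 to 224 RPKM in cKO cold footprints and 203 to 261 RPKM in cKO cold inputs. In WT cold they summed to 191 to 223 RPKM in footprints and 172 to 179 RPKM in inputs. Footprints and inputs rest on different gene lengths, and the source of the T and B cell gap was not tested. The macrophage markers summed to 3739 to 6679 RPKM in cKO cold footprints and 2782 to 3364 RPKM in WT cold footprints. The fibroblast markers summed to 3653 to 5500.4 RPKM in cKO cold and 2107 to 2448 RPKM in WT cold, and the brown and beige fat markers to 408 to 543 RPKM in cKO cold and 4881 to 7795 RPKM in WT cold. Their part in the footprint values was not tested.

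None of the other 8 members passed in footprints. Polg2 had 1.67 and 1.37 RPKM in cKO cold, against 1.74 and 1.90 RPKM in WT cold, from at least 10 and 11 reads (-0.16 ± 0.38 SE, adjusted p = 0.799). Tfam had 55.5 and 21.3 RPKM in cKO cold, against 29.1 and 26.6 RPKM in WT cold, and without cKO cold replicate 1 its log2 fold change was -0.37 in place of 0.30. Tefm had 22.3 and 64.1 RPKM in cKO cold, against 35.2 and 37.4 RPKM in WT cold. Lrpprc, the member with the highest footprint level, had 56.8 and 74.1 RPKM in cKO cold, against 76.9 and 52.7 RPKM in WT cold (0.03 ± 0.30 SE, adjusted p = 0.973). The 8 genes other than Tfb2m and Twnk gave log2 fold changes of -0.23 (Polrmt) to 0.38 (Tfb1m) with adjusted p of 0.531 to 0.973.

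The change of footprints relative to input was tested in 1 model over both kinds of library, and 0 of the 10 genes passed by limma, with 0% of all 12763 tested genes higher, 0% lower and 459 at an unadjusted p under 0.05. Twnk was the member among these, with footprint over input ratios of mean RPKM of 0.512 in cKO cold and 1.43 in WT cold (log2 difference -1.14 ± 0.42 SE, unadjusted p = 0.0228, adjusted p = 1.00). The Twnk input may hold reads of the overlapping gene Mrpl43. In cKO cold over WT cold, Mrpl43 rose in footprints (1.14 ± 0.28 SE, adjusted p = 0.0472) and gave -0.04 ± 0.40 SE for the change of footprints relative to input. How far its reads enter the Twnk ratios was not tested. Tfb2m had ratios of 1.75 in cKO cold and 1.65 in WT cold (0.06 ± 0.31 SE). Footprint and input values rest on different gene lengths, so these ratios compare conditions within a gene and not genes with each other.

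**Figure D4:**
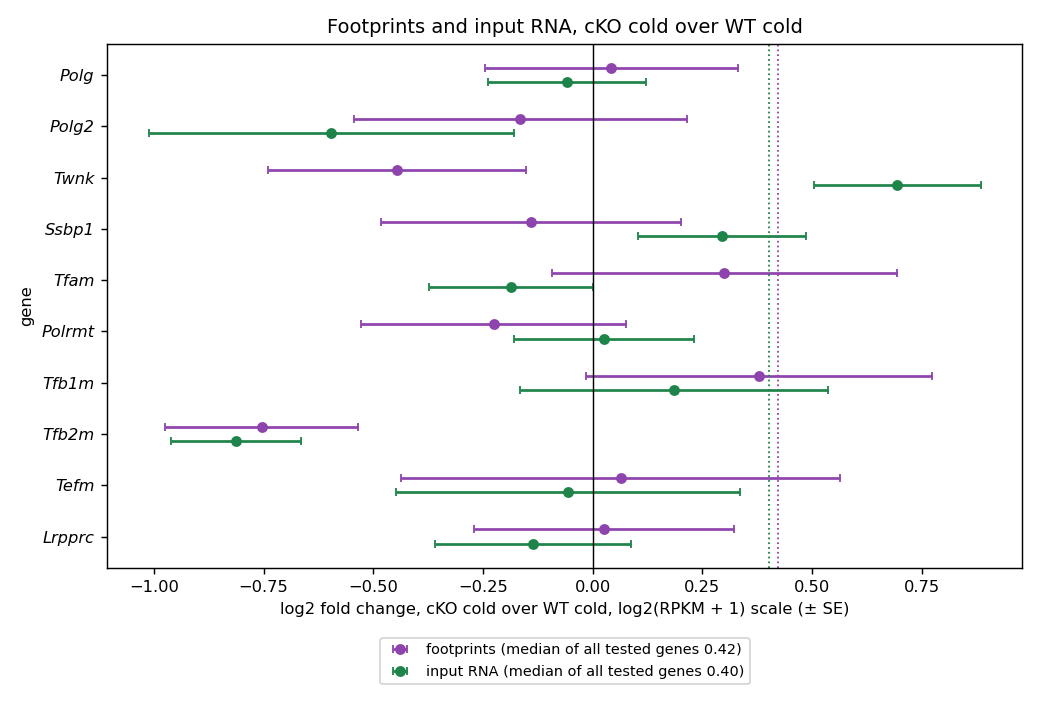
Log2 fold change of cKO cold over WT cold (x axis, log2(RPKM + 1) scale) in footprints and input RNA for each gene, with the SE of the limma fit as bars, 0 as a solid line and the medians of all tested genes as dotted lines. Tfb2m lies at -0.75 in footprints and -0.81 in input, and Twnk at -0.45 in footprints and 0.70 in input.

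Around these factors, the nuclear regulators were called in both directions. In WT cold over WT RT, 3 of 10 rose and 5 fell, where 6.52% of all genes were higher and 51.2% lower (median log2 fold change -0.42, against -0.67 over all genes). The coactivators Ppargc1a (1.66) and Ppargc1b (1.45) and the ERR receptor Esrrg (0.63) rose, while Gabpb2 (-1.76) and Gabpb1 (-1.06), the partners of Gabpa, the coactivator Pprc1 (-1.44), Nrf1 (-1.24) and Yy1 (-0.91) fell. Gabpa (0.26) and Esrra (0.07) did not pass. In cKO cold over WT cold, 2 rose and 3 fell, where 23.6% of all genes were higher and 2.92% lower (median 0.09, against 0.40 over all genes): Gabpb2 (0.72) and Pprc1 (0.70) rose, and Ppargc1b (-1.74), Ppargc1a (-1.32) and Esrrg (-1.16) fell. Nrf1 (0.64), Yy1 (0.47), Esrra (-0.37), Gabpb1 (0.27) and Gabpa (-0.09) did not pass. With median-ratio scaling the counts were 5 higher and 2 lower in WT cold over WT RT (19.1% and 20.2% of all genes), and 0 higher and 4 lower in cKO cold over WT cold (6.09% and 6.95%). In m6A over input, 2 of the 10 regulators were higher and 2 lower in cKO cold, 2 and 2 in WT cold, and 3 and 3 in WT RT. Of all genes, 11.4% were higher and 35.2% lower in cKO cold, 13.7% and 25.6% in WT cold, and 16% and 34.6% in WT RT. Ppargc1b was higher by 1.24 in cKO cold, 1.36 in WT cold and 1.45 in WT RT, and Pprc1 by 0.44, 0.66 and 1.01. Nrf1 was lower in the same 3 conditions (-0.89, -0.53 and -0.84), and Gabpa was lower in cKO cold (-0.85) and WT RT (-0.52). In footprints, 1 of the 10 regulators fell in cKO cold over WT cold, Ppargc1a (-2.05 ± 0.49 SE, adjusted p = 0.0439), where 1.54% of all genes were lower.

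In input RNA, the transcripts made from mitochondrial DNA itself were higher in WT cold than in either other condition. All 10 mitochondrial mRNAs in the matrix rose in WT cold over WT RT (median 1.25), among them mt-Nd2 (1.74), mt-Nd1 (1.49), mt-Nd6 (1.47) and mt-Nd5 (1.34), and all 10 fell in cKO cold over WT cold (median -1.21), among them mt-Nd6 (-1.59), mt-Atp6 (-1.34), mt-Atp8 (-1.29) and mt-Co2 (-1.27). Among all 12667 tested genes, 6.52% were higher and 51.2% lower in WT cold over WT RT. In cKO cold over WT cold, 23.6% were higher and 2.92% lower. With quantile scaling 2 of 10 rose in WT cold over WT RT (22.2% of all genes higher and 18.2% lower) and 2 of 10 fell in cKO cold over WT cold (5.98% higher and 5.19% lower), with medians of 0.06 and -0.16. That scaling gives every library the same set of values, so it limits the change that highly abundant mRNAs can show. Between cKO cold and WT RT, 1 of 10 was higher in cKO cold and 0 lower. Of all genes, 8.38% were higher and 24.7% lower there. In m6A over input the mitochondrial mRNAs were called in both directions in cKO cold (4 higher and 4 lower) and WT cold (1 higher and 4 lower), and in WT RT 0 were higher and 6 lower. Of all genes, 11.4% were higher and 35.2% lower in cKO cold, and 13.7% and 25.6% in WT cold. In WT RT 16% were higher and 34.6% lower. The mitochondrial mRNAs held 6.22% to 6.62% of the input reads in the matrix in cKO cold, 13.7% to 15.1% in WT cold and 5.78% to 5.93% in WT RT. In footprints 4 of 10 fell in cKO cold over WT cold, mt-Atp6 (-1.93), mt-Nd2 (-1.89), mt-Nd5 (-1.75) and mt-Nd3 (-1.57). Of all genes, 1.54% were lower in footprints. Tfb2m was the member whose RNA was high in WT cold and lower in both cKO cold and WT RT, as these transcripts and the brown and beige fat markers were, and no test of a link was made.

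Genes that supply nucleotides or otherwise maintain mitochondrial DNA were mixed. Of 22, 4 rose and 8 fell in WT cold over WT RT (median -0.28), with Sucla2 (1.74) and Suclg1 (1.52), subunits of succinate-CoA ligase, rising and Samhd1 (-2.57), which degrades deoxynucleotides, and Tk2 (-1.50), a mitochondrial thymidine kinase, falling. In cKO cold over WT cold, 1 rose, Samhd1 (1.197), and 3 fell, Sucla2 (-1.26), Suclg1 (-1.10) and the fusion protein Mfn2 (-0.59), with a median of 0.12. With median-ratio scaling the counts were 6 higher and 3 lower in WT cold over WT RT, where 19.1% and 20.2% of all genes were called. In cKO cold over WT cold they were 1 higher and 4 lower, where 6.09% and 6.95% of all genes were called. Set beside the counts before scaling are 6.52% of all genes higher and 51.2% lower in WT cold over WT RT, and 23.6% and 2.92% in cKO cold over WT cold. In footprints of cKO cold over WT cold, the DNA ligase Lig3 rose (1.11) and Suclg1 (-1.75) and Sucla2 (-1.60) fell, where 5.61% of all genes were higher and 1.54% lower. With median-ratio scaling of the footprints 0 of the list were higher and 2 lower, where 2.51% of all genes were lower. Samhd1 is also abundant in immune cells. In WT cold over WT RT, 4 of 7 tested macrophage markers and 8 of 8 T and B cell markers were lower, and 0 of either were higher. In cKO cold over WT cold, 6 of 7 macrophage markers and 1 of 8 T and B cell markers were higher, and 0 of either were lower. The shares of all genes are those given above. The part of these cells in the Samhd1 values was not tested.

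Of 28 tested genes for mitochondrial RNA handling, 4 rose and 4 fell in WT cold over WT RT (median -0.12, with 6.52% of all genes higher and 51.2% lower), led by Rpusd4 (-1.10), Mrpl12 (1.08), Ptcd3 (1.03) and Mterf1a (-0.91). In cKO cold over WT cold 2 rose, the pseudouridine synthase Rpusd3 (1.30) and the exonuclease Pde12 (0.80), and 0 fell by limma (median 0.01, with 23.6% of all genes higher and 2.92% lower). With median-ratio scaling the counts were 14 higher and 0 lower in WT cold over WT RT, where 19.1% and 20.2% of all genes were called. In cKO cold over WT cold they were 1 higher and 4 lower, where 6.09% and 6.95% of all genes were called. Mterf3, a transcription regulator of mitochondria, was the gene of this list with the lowest m6A over input in each condition, at -2.56 in cKO cold, -2.07 in WT cold and -2.30 in WT RT. Of 11 nucleoid proteins and matrix proteases, 7 rose and 2 fell in WT cold over WT RT (median 0.50), with the chaperones Hspa9 (1.29) and Hspd1 (0.96) and the prohibitin Phb (0.91) rising and Shmt2 (-1.66) falling, and 0 rose and 3 fell in cKO cold over WT cold, Hspa9 (-0.67), Clpx (-0.65) and Atad3a (-0.64). Set beside these counts are 6.52% of all genes higher and 51.2% lower in WT cold over WT RT, and 23.6% and 2.92% in cKO cold over WT cold. Median-ratio scaling gave 9 higher and 1 lower, where 19.1% and 20.2% of all genes were called, and 0 higher and 6 lower, where 6.09% and 6.95% were.

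**Figure D5:**
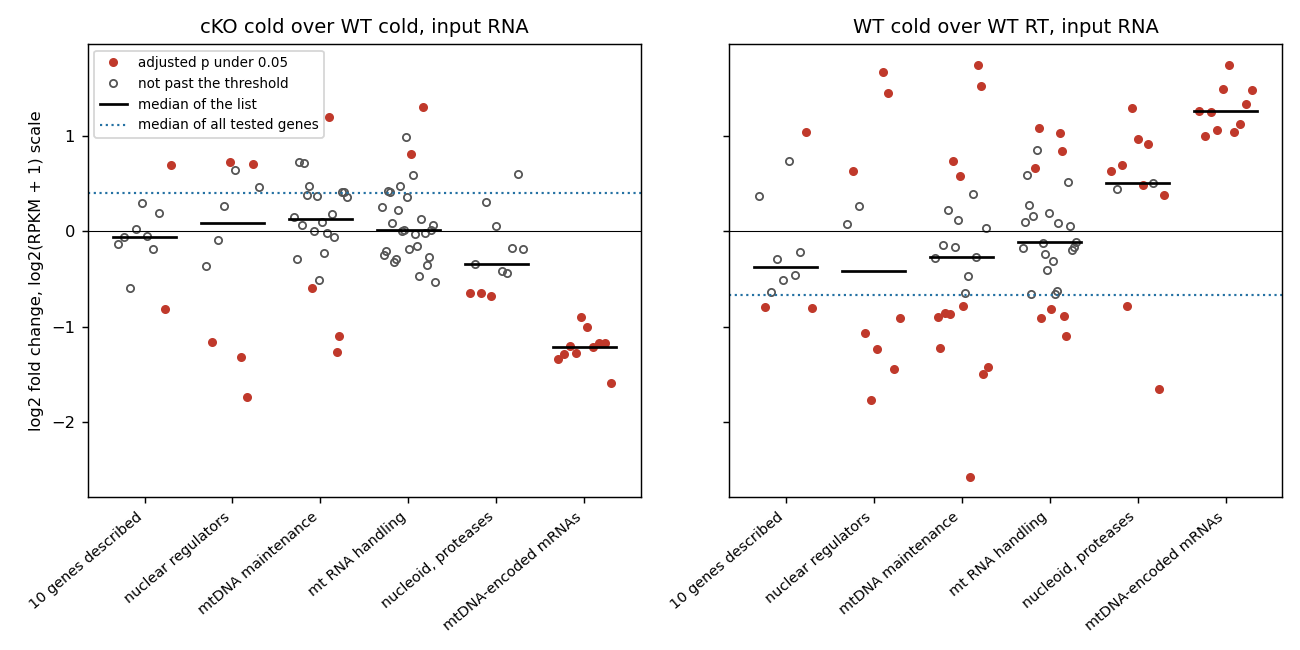
Log2 fold change of input RNA (y axis, log2(RPKM + 1) scale) in cKO cold over WT cold (left) and WT cold over WT RT (right) for each gene (points, filled where the adjusted p is under 0.05) of 6 lists, with list medians (lines) and the median of all tested genes (dotted line, 0.40 on the left and -0.67 on the right). The mitochondrial mRNAs lie at a median of -1.21 on the left and 1.25 on the right, while the 10 genes described spread around -0.06 and -0.37.

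Across the 6 input libraries, the genes whose log2(RPKM + 1) profile was most like that of Tfam were Atp8a1 (Pearson's r = 0.997), Dcaf1 (0.997) and Dcaf11 (0.994). Atp8a1 had 6.77 and 6.65 RPKM in cKO cold, 8.73 and 7.88 RPKM in WT cold and 14.0 and 13.2 RPKM in WT RT, the same order as Tfam. Within the set, the profile of Polg was closest to that of Tfam (r = 0.945), and Tfb2m and Twnk ran opposite (r = -0.986). These values describe 6 libraries in 3 conditions and share their library scaling, so no test is attached to them.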

How the data were processed

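Input, m6A-captured and ribosome-footprint libraries, 16 in 8 groups of 2, were analysed from the matrix of RPKM values that the authors deposited. The submitters' processing notes name HISAT2 and mm10. The counting tool, annotation, strand setting and scaling are not given in the sources used here. Per the labels' protocols, RNA was taken with Trizol and libraries were built with a small RNA kit. The number of columns set aside was 0. Groups were taken from sample titles.

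RPKM values were tested to be whole reads times a library constant over a gene length. For input and m6A libraries, 100% of 17883 genes came out whole within a tolerance of 0.001 reads, against 0 of 500 scrambled genes. For footprints 51 of 500 scrambled genes also did, so footprint reads are lower bounds. These reads give depth alone.

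Tests used limma 3.58.1 (R 4.3.3) on log2(RPKM + 1), with a mean-variance trend, moderated variances and Benjamini-Hochberg adjustment over all genes with at least 1 RPKM in 2 libraries. Fold changes of low genes are understated on this scale. Separate fits held 6 inputs (3 residual degrees of freedom), 12 input and m6A libraries (6) and 8 cold input and footprint libraries (4).

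The numbers of input and m6A libraries were taken as pairs from the data, not the labels: their deviations within a condition correlated at r = 0.465 in cKO cold, 0.560 in WT cold and 0.419 in WT RT over 12667 genes. Alternatives were a pseudocount of 0.1 RPKM, no filter, median-ratio and quantile scaling, scaling outside mitochondrial mRNAs, Lars2 and Gm20594, all 16 libraries in 1 fit, replicate blocks and left-out libraries. The members, lists and motifs were chosen with earlier results of these data known. Named were all members and regulators, of each other list up to 4 called genes per comparison with the largest change, Mettl3, and the 3 genes nearest to Tfam. Promoters and gene positions are from RefSeq on GRCm38.p6, the build mm10 denotes. Positions overlap those of other genes for Polg, Polg2, Twnk and Tfb1m, whose values are uncertain to that extent. Python 3.11.15 was used for descriptions.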

Additional observations from a re-analysis of the deposited data

Results flagged for a closer look

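The difference in m6A over input of Twnk between cKO cold and WT cold, -1.33 ± 0.19 SE on the log2(RPKM + 1) scale, passed the test of the difference itself when the input and m6A pairs were blocks (adjusted p = 0.0143) and not without them (adjusted p = 0.0885). Blocking was the 1 of 15 alternatives in which the difference passed. With blocks, 0.0612% of all 13062 tested genes were higher and 3.04% lower, against 0% and 0% without them. The m6A over input ratios of the pairs were 1.30 and 1.40 in cKO cold against 3.90 and 4.30 in WT cold. Twnk was the gene of the 10 that met this mark, and its gene overlaps Mrpl43 by 780 bases.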

How the results depend on the processing

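The 19 calls among 100 member values were recomputed under 7 settings and with each library left out. All 19 kept their call with a pseudocount of 0.1 RPKM, 18 with all 16 libraries in 1 fit, 17 without a filter, 17 with the replicate block, 15 with scaling outside mitochondrial mRNAs, Lars2 and Gm20594, 13 with quantile scaling and 12 with median-ratio scaling, and 59 of 76 left-out fits kept it. Of the called values, 1 changed sign, Twnk in WT cold over WT RT with quantile scaling (0.072), and the cause was not tested. In cKO cold over WT cold input, 1 member was called in place of 2 without a filter, with median-ratio, quantile and outside-mitochondrial scaling, with the replicate block and in each left-out fit (1 to 1). In cKO cold over WT RT input the count of 2 became 1 without a filter, 0 with median-ratio scaling, 1 with quantile and 1 with outside-mitochondrial scaling, and 0 to 3 with libraries left out. In WT cold over WT RT input the count of 3 became 1 to 4 with libraries left out. With input and m6A pairs as the replicate block, 7 members were called in WT cold m6A in place of 4, and 1 in place of 0 for the change of m6A in cKO cold over WT cold. Footprints gave 1 call in place of 0 with median-ratio scaling, where 100 of 12770 tested genes were higher and 320 lower. They also gave 1 call with all 16 libraries in 1 fit, where 3285 of 13418 tested genes were higher and 489 lower. Without these changes, 716 of 12763 tested genes were higher and 196 lower. A fit with a left-out library assumes that the lone library varies like the other groups. Inputs of different conditions share replicate numbers but not deviations (r -0.104 to 0.0475 over genes), so for them the block rests on a number alone: it called Ssbp1 in WT cold over WT RT (adjusted p = 0.0338) and Polg2 in cKO cold over WT RT (-1.23, adjusted p = 0.0140) and lost Twnk in cKO cold over WT cold (0.70, adjusted p = 0.0553) and Tfam in cKO cold over WT RT (-0.65, adjusted p = 0.0582). Low depth limits Polg2, Tfb1m and the Twnk footprints most.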
